A study of Mus musculus with 4 samples.

Results

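8 genes were examined, 7 of them labelled as lower and 1 (Rbm45) as higher in double-positive thymocytes of USP8ff_CD4Cre mice than of USP8ff mice. They were chosen by their measured signal in this same comparison and for belonging to no list of T cell maturation genes. Their differences are therefore given as a description, with no test, and support nothing. The 8 genes had 10 of the 41174 non-control probes on the array, and 7 of the 8 were among the 13062 genes with a probe kept for comparison.

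Double-positive thymocytes carry CD4 and CD8 together and are the stage at which developing T cells are selected on their antigen receptor. Usp8 encodes a ubiquitin-specific protease that removes ubiquitin from proteins on endosomes. The 8 genes belong to unrelated families: surface and secreted proteins (Lypd6b, Hrh3, Adamtsl2), a regulator of small GTPases (Arap3), nuclear and RNA-binding proteins (Esrp2, Zfp58, Rbm45), and Ccdc102a, a coiled-coil protein.

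RNA was from sorted double-positive thymocytes of untreated, sex-matched littermates aged 6 to 12 weeks. All mice carried loxP-flanked Usp8 alleles, named USP8ff, and the USP8ff_CD4Cre mice also carried Cre driven by Cd4 regulatory sequences. Each sample pooled 2 mice, with 2 samples per genotype and 8 mice in all, and was run on a 1-colour Agilent array. No group carried Cre without loxP-flanked alleles, so that an effect of Cre itself and of the deletion cannot be told apart. In these bulk samples fewer cells of a type and less RNA per cell cannot be told apart either.

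Usp8 was lower in both USP8ff_CD4Cre samples, at log2 levels of -1.03 and -1.23 against -0.23 and -0.40 in USP8ff, a difference of -0.81 (SE 0.13), or 56.9% of the control. Whether its probe lies in the deleted part is not known here. Levels are log2 processed signals minus the 75th percentile of the array, which was 532 to 593 signal units, and differences are USP8ff_CD4Cre minus USP8ff. Each SE is from a limma fit, which moves a gene's own variance toward that of all genes. Probes that the scanner flagged as well above background in both USP8ff samples, or in both USP8ff_CD4Cre samples, were kept. The lowest signal so flagged was 24.9 to 40.4 units, and no spot was saturated. Over all 13062 genes the median difference was 0.02, and 45.2% of differences were below 0. Limma called 0 genes (0%) at an adjusted p under 0.05, the smallest adjusted p being 0.29, and 970 genes at an unadjusted p under 0.05. No other tool was run.

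Of the 10 probes, 7 were well above background on all 4 arrays, 1 on a single array (Ccdc102a) and 2 on none (the second probes of Arap3 and Zfp58). Of the 7 genes with a kept probe, 5 were lower in both USP8ff_CD4Cre samples than in both USP8ff samples, where 16.3% of all genes were. The other two, Rbm45 and Zfp58, were higher without overlap, as 24.3% of all genes were. At an unadjusted p under 0.05, 5 of the 7 were lower (3.46% of all genes) and 1 was higher (3.97%). The genes were selected on this contrast, so nothing is read from these counts. Differences beyond 2-fold were uncommon in the table, with 51 genes lower (0.390%) and 10 higher (0.0766%).

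**Figure D1:**
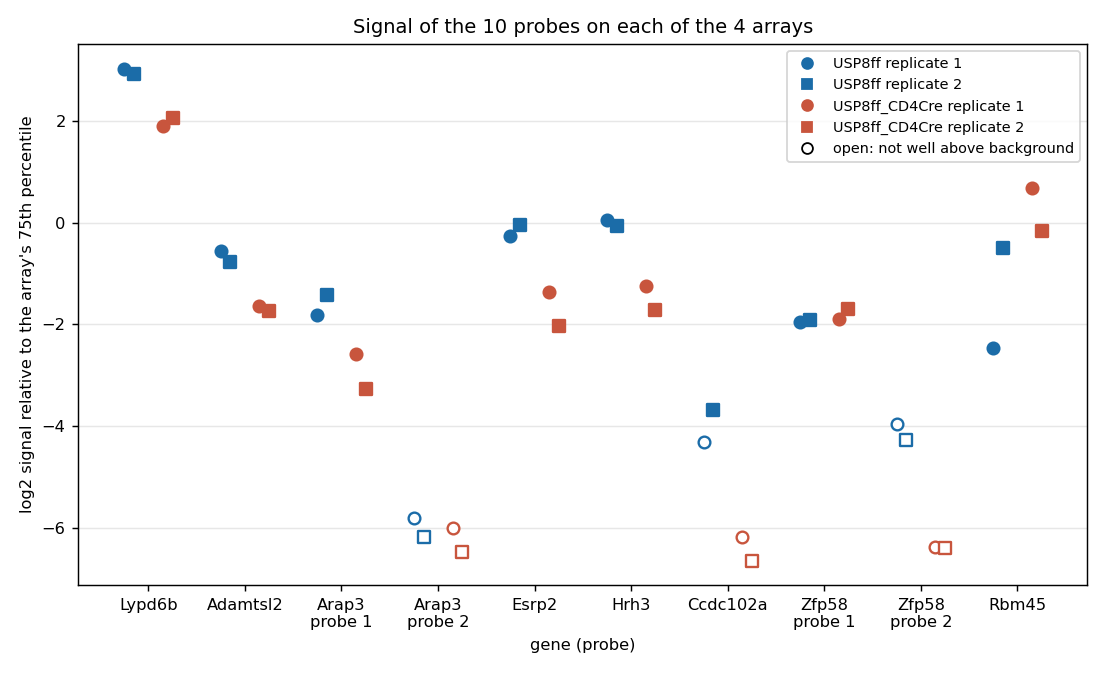
Log2 signal minus the array's own 75th percentile (vertical axis) for each of the 10 probes (horizontal axis). Circles and squares are replicates 1 and 2, blue for USP8ff and red for USP8ff_CD4Cre, and open symbols are spots not well above background. Lypd6b is the brightest probe, the second probes of Arap3 and Zfp58 are open on all 4 arrays, and the USP8ff points of Rbm45 lie far apart, at -2.47 and -0.50.

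Lypd6b encodes a LY6/uPAR-domain protein held at the cell surface by a lipid anchor, of a family that modulates nicotinic acetylcholine receptors. Its probe, at chr2:49804191-49804250 on the plus strand of mm9, gave processed signals of 4839 and 4543 in USP8ff and 1987 and 2338 in USP8ff_CD4Cre. It was the brightest of the genes, above 71.5% of kept genes, and the replicates of each genotype lay close together while the genotypes were well apart. The log2 levels were 2.99 ± 0.07 (SD, n = 2) in USP8ff and 1.98 ± 0.11 (SD, n = 2) in USP8ff_CD4Cre, a difference of -1.01 (SE 0.12), which is 2.01-fold lower.

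The related LY6 and uPAR genes were more often above 0 than below, as were all genes, of which 45.2% were below 0. Of 32 listed, 13 were measured, 4 with a difference below 0 and 9 above, with a median of 0.16 against 0.02 over all genes. At an unadjusted p under 0.05 none was lower and 1 was higher, Ly6e, at 0.37 (SE 0.14), and none passed the adjusted threshold. Ly6c2, a surface antigen of mature T cells and monocytes, had the lowest difference, -0.43 (SE 0.25). Lypd6, the closest relative of Lypd6b, was well above background on no array with either of its probes.

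Hrh3 encodes the histamine H3 receptor, a G protein-coupled receptor best known as a presynaptic inhibitor of transmitter release in the brain. Its probe lies at chr2:179834245-179834304 on the minus strand of mm9. Its signals were 617 and 567 in USP8ff, against 225 and 171 in USP8ff_CD4Cre, so that each USP8ff array was above each USP8ff_CD4Cre array by a wide margin. The log2 difference was -1.48 (SE 0.19), which is 2.78-fold lower, the 14th lowest difference of the 13062 genes. It was -1.22 with the normexp background correction.

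None of the 8 other histamine genes listed was measured in these cells. The receptors Hrh1, Hrh2 and Hrh4, the synthesising enzyme Hdc and the degrading enzyme Hnmt were well above background on no array. Hdc came nearest, with signals of 33.1 and 28.4 in USP8ff and 24.0 and 16.8 in USP8ff_CD4Cre.

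Adamtsl2 encodes a secreted glycoprotein without protease activity that binds microfibrils of the extracellular matrix. Its probe, at chr2:26964005-26964064 on the plus strand of mm9, gave 403 and 349 in USP8ff and 172 and 168 in USP8ff_CD4Cre. The USP8ff_CD4Cre samples were nearly equal, and both were far below either USP8ff sample. The log2 difference was -1.02 (SE 0.13), or 2.03-fold lower, and -0.75 with the normexp background correction.

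Most of the matrix genes related to Adamtsl2 were too dim to measure. Of 34 listed ADAMTS, ADAMTSL and microfibril genes 6 were measured, 1 with a difference below 0 and 5 above, with a median of 0.11. At an unadjusted p under 0.05 none was lower and 1 was higher, the growth factor Tgfb3, at 0.40 (SE 0.11), and none passed the adjusted threshold. Adamtsl1, Adamtsl3, Adamtsl4 and Adamtsl5 were well above background on no array.

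Promoter windows were available for 5 of the 8 genes, and those of Adamtsl2 and Hrh3, both lower by over 2-fold, and of Rbm45, the gene that was higher, are shown for how differently they are built. Each is the 250 bases before the gene's start in the RefSeq table (GRCm38.p6), written 5′ to 3′ on the gene's strand with CG pairs in capitals. They lie at chr2:27079129-27079378 (Adamtsl2, plus strand), chr2:180104408-180104657 (Hrh3, minus strand) and chr2:76369734-76369983 (Rbm45, plus strand), in another build than the probe positions.
Adamtsl2: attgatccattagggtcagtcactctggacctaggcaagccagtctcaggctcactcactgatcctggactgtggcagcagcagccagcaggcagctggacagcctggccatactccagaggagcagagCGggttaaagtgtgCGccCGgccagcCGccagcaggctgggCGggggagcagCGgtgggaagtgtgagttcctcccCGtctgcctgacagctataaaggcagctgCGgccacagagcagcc
Hrh3: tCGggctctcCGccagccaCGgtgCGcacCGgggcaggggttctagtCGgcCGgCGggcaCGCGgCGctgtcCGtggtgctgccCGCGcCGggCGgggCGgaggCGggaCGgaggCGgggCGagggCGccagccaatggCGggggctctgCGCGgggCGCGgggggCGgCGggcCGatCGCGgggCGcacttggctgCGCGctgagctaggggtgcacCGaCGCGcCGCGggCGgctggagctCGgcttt
Rbm45: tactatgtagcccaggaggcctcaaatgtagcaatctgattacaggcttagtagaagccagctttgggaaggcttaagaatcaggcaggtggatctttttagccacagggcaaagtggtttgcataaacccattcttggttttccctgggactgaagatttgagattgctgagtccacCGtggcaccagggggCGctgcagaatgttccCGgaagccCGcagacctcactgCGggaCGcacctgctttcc
The Hrh3 window holds 42 CG pairs, more than 99.1% of the 32851 windows in the table, against 8 in Adamtsl2, 6 in Rbm45 and a median of 6 over all windows. The windows of Ccdc102a and Zfp58 hold 17 and 4. The letters TATAAA occur in the Adamtsl2 window, 30 bases before the start, and in none of the other 4, while 12.4% of all windows hold them on either strand. None of the 5 windows holds, on either strand, GTAAACA (a FOXO motif, in 3.17% of all windows), CCGGAAGT (ETS, 2.88%), TGTGGTT (RUNX, 4.40%) or CACGTG (an E-box, 6.02%). This says only that those letters are not in these bases.

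Arap3 encodes a phosphoinositide-binding GTPase-activating protein for Arf6 and RhoA. Its first probe, at chr18:38132384-38132443 on the minus strand of mm9, gave 168 and 221 in USP8ff and 89.2 and 57.9 in USP8ff_CD4Cre. The genotypes did not overlap, but this was a dim probe, above 16.2% of kept genes, and its replicates spread more than those of Lypd6b. The log2 difference was -1.31 (SE 0.27), or 2.47-fold lower, and it was -0.71 with the normexp background correction.

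The second Arap3 probe, at chr18:38142691-38142750, gave no measurement. Its signals were 10.4, 8.15, 8.31 and 6.30 in USP8ff replicates 1 and 2 and USP8ff_CD4Cre replicates 1 and 2. The scanner had replaced all 4 by a substitute value, and the background-subtracted signals, -10.9, -8.76, -10.1 and -6.58, were all below 0. The lower level of Arap3 thus rests on 1 probe.

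The other regulators of ARF GTPases were almost all measured, 26 of 28 listed, with 6 differences below 0 and 20 above and a median of 0.08. At an unadjusted p under 0.05 none was lower and none higher, and none passed the adjusted threshold. The closest relatives, Arap1 and Arap2, had differences of -0.05 (SE 0.18) and -0.07 (SE 0.13). Arf6, a substrate of Arap3, had 0.20 (SE 0.11), and Asap2, another ARF GAP, had the largest, 0.32 (SE 0.25).

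Esrp2 encodes an RNA-binding protein that directs epithelial patterns of alternative splicing. Its probe, at chr8:108655091-108655150 on the minus strand of mm9, gave 490 and 576 in USP8ff and 209 and 137 in USP8ff_CD4Cre. The USP8ff_CD4Cre samples were both below either USP8ff sample and differed from each other more than the USP8ff samples did. The log2 difference was -1.54 (SE 0.25), or 2.91-fold lower.

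A further probe, filed in the array design under an Ensembl transcript name, starts 542 bases away on the same strand and shares 3 accessions with the Esrp2 probe. It gave 865 and 971 in USP8ff and 345 and 268 in USP8ff_CD4Cre, a log2 difference of -1.48 (SE 0.18), or 2.78-fold lower. Both probes were well above background on all 4 arrays and had the same order of arrays, so that Esrp2 was the only one of the 8 genes with a lower level at more than 1 measured probe.

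Most other measured splicing regulators had differences above 0, as did most genes of the table, of which 45.2% were below 0. Of 34 listed 28 were measured, 7 with a difference below 0 and 21 above, with a median of 0.12. At an unadjusted p under 0.05 none was lower and 2 were higher, Mbnl1 at 0.44 (SE 0.11), a regulator of alternative exons, and Srsf9 at 0.27 (SE 0.11), an SR splicing factor. None passed the adjusted threshold. Qk, also a regulator of alternative exons, had the highest difference, 0.50 (SE 0.20), without passing the unadjusted threshold. Khdrbs3 had the lowest difference, -0.41 (SE 0.21), and Esrp1, the paralog of Esrp2, was well above background on no array with either of its probes.

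Zfp58 encodes a zinc finger protein of the KRAB type, a large family of DNA-binding repressors whose members share near-identical finger repeats. Its probes disagreed. The following probe stretches are shown because they differ in how much sequence is shared with other probes: the second probe in full (60 bases) with capitals for bases in runs of at least 15 found in a probe of another name, and the first 30 bases of the first probe of Zfp58 and of the Rbm45 probe, where none is.
Zfp58, second probe: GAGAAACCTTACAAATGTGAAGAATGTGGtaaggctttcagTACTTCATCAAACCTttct
Zfp58, first probe: ctgaacattgacgttatcatttgaaggatg
Rbm45: tccaaaaagaggcagagaacttactgagtc

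The first Zfp58 probe, at chr13:67591536-67591595 on the minus strand of mm9, gave 152 and 158 in USP8ff and 144 and 174 in USP8ff_CD4Cre. After scaling, the log2 levels were -1.96 and -1.91 against -1.89 and -1.69, a difference of 0.15 (SE 0.12). At this probe Zfp58 was not lower in USP8ff_CD4Cre, against its label. The second probe, which has no position in the scanner files, gave 38.0 and 30.6 in USP8ff and 6.40 and 6.60 in USP8ff_CD4Cre. The scanner flagged this second probe as positive and significant in both USP8ff samples and in USP8ff_CD4Cre replicate 2, and used a substitute value in USP8ff_CD4Cre replicate 1. It was well above background on no array, so it gives no fold here.

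The authors' deposited table lists the second probe of Zfp58 as 4.83-fold down with a p-value of 0.00486, the 6th largest fold of its 78 probes, and does not list the first. In the second probe 44 of the 60 bases lie in shared runs, and it shares such runs with probes of 10 other names. Of these 9 were measured, 7 with a difference below 0, with a median of -0.14 and a range from -0.32 to 0.32. Of the 9, 5 are zinc finger genes by name (Zfp51, Zfp52, Zfp729a, Zfp982 and Zfp987).

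The list of zinc finger genes clustered near Zfp58 and their co-repressors had 22 members, of which 16 were measured. Of these 10 had a difference below 0 and 6 above, with a median of -0.06. None was lower or higher at an unadjusted p under 0.05, and none passed the adjusted threshold. Zfp429 had the lowest difference, -0.63 (SE 0.53), with overlapping genotypes, and Cbx5, a heterochromatin protein, the highest, 0.34 (SE 0.14). Trim28, the co-repressor bound by KRAB domains, had 0.22 (SE 0.18).

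Ccdc102a encodes a coiled-coil protein. Its probe, at chr8:97426951-97427010 on the minus strand of mm9, gave 29.7 and 46.1 in USP8ff and 7.31 and 5.57 in USP8ff_CD4Cre. Only the 46.1 was well above background, and both USP8ff_CD4Cre values were substitutes set by the scanner. As only 1 of the 4 samples gave a measured level, no fold is given. The authors' deposited table gives this probe as 5.34-fold down with a p-value of 0.0249, the 4th largest of its 78 folds. The scanner's own error was 32.9% and 18.7% of the signal in USP8ff and 99.7% in both USP8ff_CD4Cre samples.

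The same deposited table lists Hrh3 as 2.77-fold down with a p-value of 0.0264 and Adamtsl2 as 2.03-fold down with a p-value of 0.0127. These 4 genes are its only entries among the 8, and 2 of the 4 are probes that were well above background in neither USP8ff_CD4Cre sample. The sources used here do not give its test or name its reference genotype. Its folds for Hrh3 and Adamtsl2 are close to the 2.78 and 2.03 found here as lower in USP8ff_CD4Cre. Its down is therefore read as lower in USP8ff_CD4Cre.

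Rbm45 encodes an RNA-binding protein with RNA recognition motifs, studied mainly in neurons. Its 60-base probe spans chr2:76218588-76221536 on the plus strand of mm9, which is 2949 bases. The USP8ff samples gave 106 and 419 signal units and the USP8ff_CD4Cre samples 852 and 498. The USP8ff replicates were 3.92-fold apart and the nearest samples of the 2 genotypes only 0.33 apart on the log2 scale, although the genotypes did not overlap. All 4 spots were well above background.

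The log2 levels of Rbm45 were -1.49 ± 1.39 (SD, n = 2) in USP8ff and 0.26 ± 0.60 (SD, n = 2) in USP8ff_CD4Cre. The pooled SD of the replicates was 1.07, and the SE that follows is smaller than these SDs alone would give, as limma moved the variance toward that of all genes. The difference, 1.74 (SE 0.68) or 3.34-fold higher, was the second highest of the 13062 genes, and the SD within USP8ff was the 16th largest of them. It was 0.76 without USP8ff replicate 1 and 2.73 without USP8ff replicate 2, so that which control is used moves the fold more than for any other of the genes measured here. Without USP8ff_CD4Cre replicate 1 or 2 it was 1.32 or 2.17.

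Of 39 other RNA-binding motif genes 32 were measured, 13 with a difference below 0 and 19 above, with a median of 0.02. At an unadjusted p under 0.05, 1 was lower, Rbm24, a regulator of muscle splicing, and none was higher. None passed the adjusted threshold. Rbm24 had log2 levels of -0.12 and -0.68 in USP8ff and -1.17 and -2.42 in USP8ff_CD4Cre, a difference of -1.40 (SE 0.44). Rbm3, a cold-induced RNA-binding protein, had the highest difference, 0.35 (SE 0.35).

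**Figure D2:**
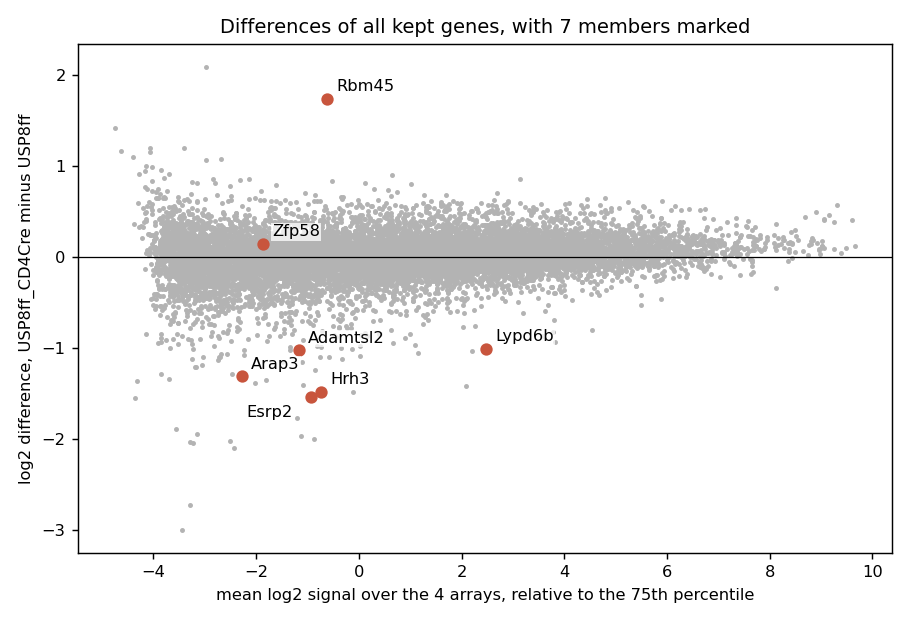
Log2 difference between genotypes (vertical axis) against mean log2 signal over the 4 arrays (horizontal axis), each grey point 1 of the 13062 kept genes and the 7 measured members in red. Rbm45 lies at 1.74, Zfp58 at 0.15 inside the cloud, and the other 5 between -1.01 and -1.54. Ccdc102a had no kept probe and is not drawn.

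**Figure D3:**
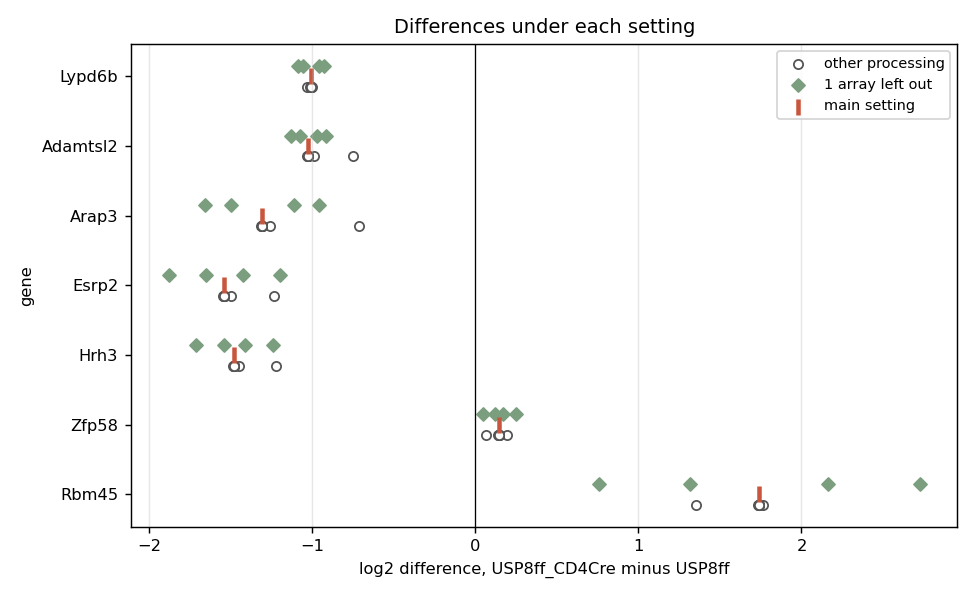
Log2 difference of the 7 measured genes (rows) in the main setting (red bar), under other processing of the same 4 arrays (open circles) and with 1 array left out (green diamonds). The values of Lypd6b stay between -1.09 and -0.93, and those of Rbm45 range from 0.76 to 2.73.

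The 5 measured lower genes were compared by their values on the 4 arrays, each centred on its own mean. Lypd6b and Adamtsl2, with similar replicates, were 0.21 apart (Euclidean distance in log2 units over 4 arrays), Arap3 and Esrp2 were 0.26 apart, and Esrp2 and Hrh3 were 0.30 apart. The other pairs lay between 0.43 (Arap3 and Hrh3) and 0.83 (Lypd6b and Esrp2), with no clear gap between groups of genes. USP8ff_CD4Cre replicate 2 was the lowest array for Adamtsl2, Arap3, Esrp2 and Hrh3, and replicate 1 for Lypd6b. With 4 arrays and genes chosen for their difference, such likeness is a description.

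Among genes outside the set, the nearest to Lypd6b were Itgb3, an integrin subunit (0.13), and Ms4a4c, a tetraspan membrane protein (0.16), and the same pair was nearest to Adamtsl2 at 0.19 and 0.16. Itgb3 had -0.84 and -0.82 in USP8ff and -1.86 and -1.84 in USP8ff_CD4Cre, but its other kept probe read -1.41 and -1.37 against -1.32 and -1.38. Smoc1, a secreted matricellular protein, was nearest to Arap3 (0.16) and Esrp2 (0.20), with log2 levels of 2.62 and 2.98 against 1.82 and 0.95. Next for both was Cd226, an activating receptor of T and NK cells (0.24 and 0.28), which was not well above background in USP8ff_CD4Cre.

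Hrh3 was nearest to the transcript BB031773 (0.33) and to Tmprss4, a membrane serine protease (0.44). No gene lay within 0.5 of Rbm45, the nearest being Rnf207 (0.60) and Fosl2 (0.74), both above background in USP8ff_CD4Cre only. For Zfp58, whose measured probe hardly moved, 9099 genes lay within 0.5, the nearest being Bcl2l13 and Psmg1 (0.01 each).

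By position, 4 of the 8 genes (Lypd6b, Adamtsl2, Hrh3 and Rbm45) lie on chromosome 2, which holds 7.65% of the 12991 genes with a position, and 2 (Esrp2 and Ccdc102a) on chromosome 8, which holds 5.26%. Usp8 is on chromosome 2 as well, at chr2:126584363-126584422 on mm9. The median difference was 0.03 over all genes of chromosome 2 and 0.02 over those of chromosome 8.

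The nearest measured genes on either side of the 8 genes all differed by less than 2-fold. Of the 16 neighbours, 2.93 to 403 kb away, 9 had a difference below 0 and 7 above, with a median of -0.04, and at an unadjusted p under 0.05 none was called. Kif5c, a kinesin 174 kb from Lypd6b, had the lowest, -0.69 (SE 0.36), with overlapping genotypes. Nfatc3, a transcription factor of T cell activation only 2.93 kb from Esrp2, had -0.05 (SE 0.12), against -1.54 for Esrp2. Mtg2 and Osbpl2, beside Hrh3, had -0.24 (SE 0.11) and -0.19 (SE 0.10), and Ttc30a1 and Prkra, beside Rbm45, had 0.26 (SE 0.14) and 0.09 (SE 0.11).

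**Figure D4:**
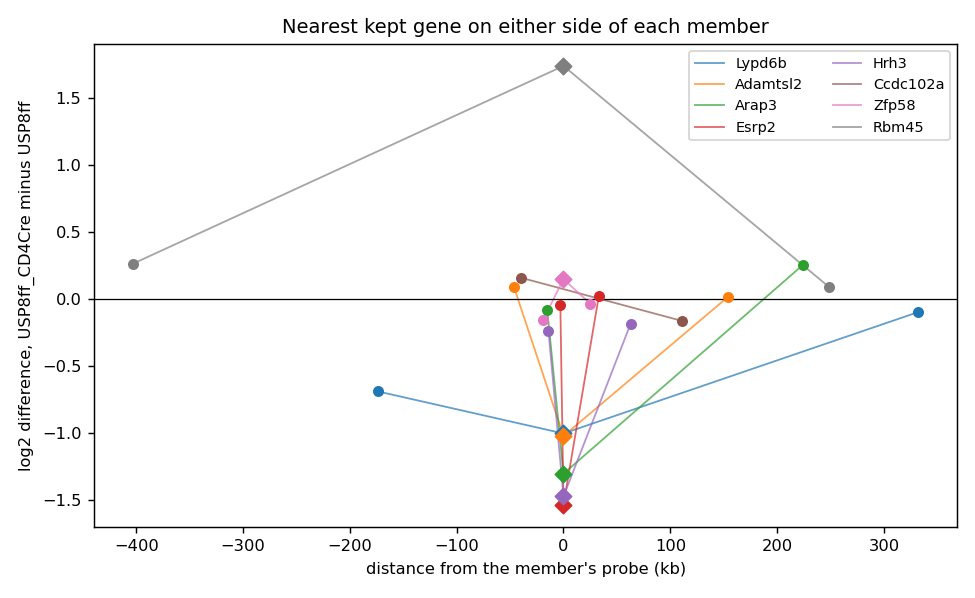
Log2 difference (vertical axis) of each gene (diamonds, at distance 0) and of the nearest kept gene on either side (circles), against distance along the chromosome in kb (horizontal axis), with a colour and a line for each gene. The 16 neighbours lie between -0.69 and 0.26, and Ccdc102a, with no kept probe, has no diamond.

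The samples' double-positive identity was checked with 12 defining genes, of which 12 were measured, 8 with a difference below 0 (median -0.06). Their summed signal, relative to the 75th percentile, was 1810 and 1916 in USP8ff and 1912 and 1939 in USP8ff_CD4Cre. Rag2 had the lowest difference, -0.33 (SE 0.13), the only 1 at an unadjusted p under 0.05, and 4 of the 12 were above 0. Of 12 markers of mature single-positive T cells 10 were measured, 8 with a difference below 0 (median -0.67) and 6 at an unadjusted p under 0.05. Il7r and Itgae had the lowest, -2.99 (SE 0.22) and -2.04 (SE 0.20), and Ccr7 had -1.24 (SE 0.23). On both USP8ff_CD4Cre arrays Il7r and Itgae lay below the lowest level flagged as well above background. Klf2 and Ccr9, the 2 above 0, had 0.23 (SE 0.12) and 0.15 (SE 0.12). The sums of the 10 overlapped, at 255 and 280 against 273 and 268, and by their levels Klf2 and Ccr9 make up most of each sum.

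Some of the genes are best known from other cell types that a thymic sort could hold, and markers of those were read beside them. Of 14 markers of thymic epithelial cells, Esrp2 being known as an epithelial gene, 6 were measured, 3 with a difference below 0. Their sums were 2.66 and 3.27 in USP8ff, against 2.65 and 2.81, and by its level Ccl25, at -0.13 (SE 0.14), makes up most of each sum. Epcam had -0.47 (SE 0.13), the only 1 at an unadjusted p under 0.05. Krt5, Cldn4 and Cldn3, the 3 above 0, had 0.22 (SE 0.12), 0.22 (SE 0.32) and 0.12 (SE 0.11). Foxn1, Psmb11, Krt8, Cdh1 and Aire were not kept. Of 12 endothelial markers 4 were measured, 1 with a difference below 0 and 1 higher at an unadjusted p under 0.05 (Esam, 0.40, SE 0.12), with sums of 1.43 and 1.33 against 1.40 and 1.43, and Cdh5, Kdr and Tek were not kept. Of 10 fibroblast markers 2 were measured, with sums of 0.36 and 0.26 against 0.29 and 0.34, and Col1a1, Col3a1 and Pdgfra were not kept.

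Markers of other blood cells included some of the lower genes of the table. Of 14 markers of macrophages and dendritic cells 8 were measured, 6 with a difference below 0 and 3 at an unadjusted p under 0.05, and their sums were 3.86 and 4.10 in USP8ff against 2.91 and 3.05 in USP8ff_CD4Cre. Ctss had -1.96 (SE 0.21) and Mpeg1 -1.09 (SE 0.23), while Csf1r, Adgre1 and Itgax were not kept. By its levels, -0.37 and 0.08 against -1.92 and -2.29, Ctss makes up most of the fall in these sums. Cd68, Lyz2 and H2-Ab1 had only -0.12 (SE 0.13), -0.19 (SE 0.22) and -0.03 (SE 0.12). C1qb and Xcr1, the 2 above 0, had 0.25 (SE 0.14) and 0.08 (SE 0.12). Of 11 NK and innate markers 5 were measured, 3 with a difference below 0, all 3 at an unadjusted p under 0.05, with sums of 4.28 and 4.37 against 3.94 and 5.29. Nkg7 and Il2rb had -2.09 (SE 0.18) and -2.02 (SE 0.34), while Gzma and Tbx21, the 2 above 0, had 0.42 (SE 0.20) and 0.15 (SE 0.10). By its level Gzma makes up most of each sum.

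Of 8 markers of regulatory T cells 5 were measured, 4 with a difference below 0 and 3 at an unadjusted p under 0.05, with sums of 22.0 and 25.1 against 19.3 and 19.1. Gpr83 had -1.94 (SE 0.30) and Ikzf2, the only 1 above 0, had 0.23 (SE 0.12), and Foxp3, Il2ra and Ctla4 were not kept. On the USP8ff_CD4Cre arrays Gpr83 lay near the lowest level flagged as well above background, at -4.02 and -4.22 against -4.05 and -4.49. Tnfrsf18 had -0.39 (SE 0.13) and by its level makes up most of each sum. Of 8 B cell markers 3 were measured, 2 with a difference below 0 (Cd79b at -0.08, SE 0.12, and Blnk at -0.75, SE 0.38), with sums of 73.7 and 83.0 against 99.9 and 119. The third, Ighm, the immunoglobulin mu chain, had 0.53 (SE 0.15), the only 1 at an unadjusted p under 0.05, and by its level makes up most of each sum. Of 8 erythroid markers 3 were measured, 2 with a difference below 0, with sums of 1.32 and 1.06 against 1.09 and 0.80. Hba-a2 had 0.81 (SE 0.52) and Car2 -0.70 (SE 0.39). The part of these cell types in the levels of the 8 genes was not tested.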

How the data were processed

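The authors deposited 4 Agilent scanner files of spot intensity, read per the file headers with Feature Extraction 10.7.3.1, which subtracts background and detrends within an array. They are not scaled between arrays. All 4 arrays lay on 1 slide. For 78 probes a table deposited by the authors holds a p-value and an absolute fold marked up or down; the sources used here do not say how it was made. Another table has 4 columns of per-sample values named unlike any label, and these 4 were not used.

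From the deposited intensity, log2 processed signals were set against the array's 75th percentile. Dropping spots flagged as outliers cost 17 of the 41174 probes, and repeated spots were averaged. The 19038 kept probes (46.2%) gave 13062 genes, each by its brightest kept probe, compared with limma 3.58.1 (lmFit, eBayes, Benjamini-Hochberg, threshold 0.05) in R 4.3.3. Tables were made with pandas 2.3.3 in Python 3.11.15. The fit was also run on simulated data drawn from its own fitted variances, which checks the code and not how well the fit suits these arrays. Probe names were updated by RefSeq accession where one matched, and positions are those of the scanner files (mm9); whether a probe is exonic or in a UTR was not looked up, as no annotation of that build was used here.

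The 8 genes, the 7 related lists and the 10 marker lists were chosen with earlier results of these data known. Named beside them were Usp8, the nearest measured gene on either side and the 2 genes of most similar values over the arrays. From the lists, some close paralogs, defining markers and largest differences were named. Names outside this rule (Arf6, Trim28, Srsf9, Cd79b, Klf2, Ccr9, Gzma, Tbx21, Cd68, Lyz2, H2-Ab1, C1qb, Xcr1, Ikzf2, Tnfrsf18, Cldn3, Cldn4, Ccl25) were chosen after values were seen. The p-values rest on the spread between arrays of pooled mice, after limma moved each gene's variance toward that of all genes. In that spread, differences between pools and between arrays cannot be told apart, and differences between individual mice were not measured. The number of arrays (2 per genotype) limits the precision. Alternatives were other background corrections, scalings, filters, probe choices, a replicate block and leaving out each array.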

Additional observations from a re-analysis of the deposited data

How the results depend on the processing

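The differences of the 7 measured genes moved by more than 1 SD between replicates only under the normexp background correction. This held for Adamtsl2, Arap3 and Hrh3 (values above). That SD is each gene's own: Esrp2 and Rbm45, with wider replicates, went from -1.54 to -1.23 and from 1.74 to 1.35 without passing it. The normexp setting also added an offset of 50 signal units to every spot. A constant so added draws log2 differences toward 0, most at dim probes. Its part in these moves was not tested. Median scaling and quantile normalization moved each by less than 1 SD. The other alternatives say nothing of stability: with 2 samples per genotype that do not overlap, leaving out 1 array can neither reverse a difference nor move it by over 1 SD (Rbm45 still ranged from 0.76 to 2.73), and the block, the filters, the outlier spots and the choice of probe leave the values as they are. Limma called 0 genes at an adjusted p under 0.05 in every alternative run. The count at an unadjusted p under 0.05, 970 in all (518 higher and 452 lower), was 822 with median scaling (337 higher and 485 lower). Leaving out 1 array gave 396 to 1229, the 396 being without USP8ff_CD4Cre replicate 2. With the replicate number as a replicate block it was 1338; same-numbered samples had deviations correlated at 0.32, but with 2 pairs the labels show only shared numbers, not pairs, and the differences themselves do not change under the block. The dimmest genes are limited by signal over background: the second probes of Arap3 and Zfp58 and the Ccdc102a probe in USP8ff_CD4Cre were not well above it, so no level is taken from them.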
